A study of Homo sapiens with 19 samples.

Results

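The genes described here are 10 regulators of entry into the cell cycle: the CDK inhibitors CDKN1A (p21), CDKN1B (p27), CDKN1C (p57) and CDKN2C (p18), the D-type cyclins CCND1, CCND2 and CCND3, the retinoblastoma gene RB1, and the growth arrest genes GADD45A and BTG2. They were picked by name out of 31033 gene names on the array, and all 10 were found, on 18 probes. THP-1 is an established human monocytic leukaemia line. The cells in every group had been differentiated in flasks into macrophage-like cells with 30 nM PMA, a phorbol ester. They were then left without vitamin C (untreated, UT) or given 0.1 mM vitamin C (vit C), and were harvested after 8, 24, 48 and 96 h. RNA of UT cells was hybridised to 2, 3, 2 and 3 arrays at the 4 time points and RNA of vit C-treated cells to 3, 2, 2 and 2 arrays, 19 in all. The model is 1 cell line, and control cells carried the PMA exposure too.

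Cyclin-dependent kinases move a cell from G1 into S phase when a cyclin activates them. The D-type cyclins pair with CDK4 and CDK6, and these kinases phosphorylate the RB1 protein, which then lets go of the E2F factors that switch on replication genes. CDKN2C belongs to the INK4 inhibitors, which bind CDK4 and CDK6 themselves, while CDKN1A, CDKN1B and CDKN1C belong to the CIP/KIP inhibitors, which bind cyclin and kinase together. CDKN1A, GADD45A and BTG2 are also textbook targets of p53, and PMA is known to make THP-1 cells adhere and slow their division.

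Values are the log2 of the scanner's processed signal minus the 75th percentile of the same array, so that 0 is the level of that percentile. A gene's value is that of its brightest probe, a difference is first group minus second on this log2 scale, and levels of different probes were not set against each other. A gene was called when a probe differed by at least 1 (a 2-fold change) at a Benjamini-Hochberg q of at most 0.05 in a limma fit over all probes and 19 arrays. Genes whose probes moved in opposite directions were removed from a comparison, as in the study's methods. The 75th percentile of the signal ran from 290.2 to 903 and was highest on the 2 arrays of vit C at 96 h. The arrays lay on 4 slides, and no slide held both treatments at 1 time point: all UT arrays of 8, 24 and 48 h and UT 96 h replicate 1 shared a slide, UT 96 h replicates 2 and 3 lay with vit C arrays of 8, 24 and 48 h, vit C 48 h replicate 2 was alone, and both vit C 96 h arrays shared a slide of their own. Vit C and slide can therefore not be told apart at any of the 4 time points. Slide as a fixed block was fitted only in comparisons that leave out vit C at 96 h. Its slide term rests on the UT 96 h arrays, the group split between the slide of the UT arrays and that of the vit C arrays. Slide as a random block was fitted for vit C at 96 h too. UT 96 h replicate 3 stood apart, since its nearest array was one of vit C at 96 h (Pearson's r 0.973 across probes), while the nearest array of each of the other 18 was in its own group. The macrophage markers CD68, ITGAM, ITGAX, SPI1, CSF1R, CD14 and TYROBP had a probe well above background on all 19 arrays and LYZ on 18. Of the markers of other cell types reported here, EPCAM and HBB were above background on 0 arrays, MS4A1 on 1, CD2 on 11, KRT19 on 17 and CD3E on 19.

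All members but CCND2 had a brightest probe well above background on all 19 arrays. For CCND2 the brightest probe was above background on 4 of 19 arrays and its other 2 probes on 0, so no fold is given for it. The processed signal of its brightest probe ran from 5.27 to 24.0. The plot of every array by time shows the levels of the 10 genes.

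**Figure D1:**
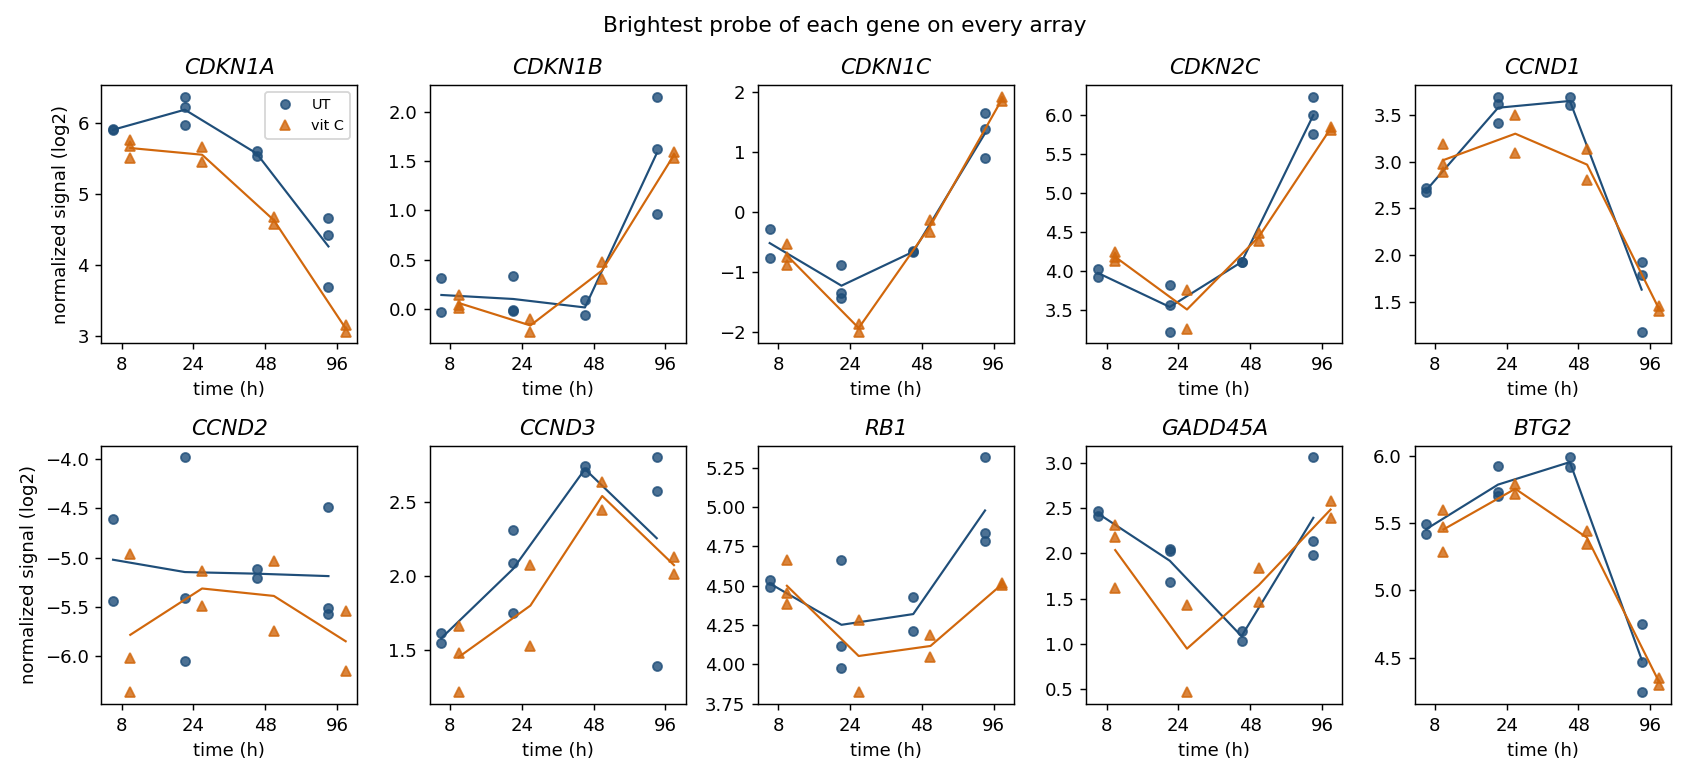
Normalized log2 signal (y axis) of the brightest probe of each of the 10 genes against time in hours (x axis, 4 evenly spaced time points). Circles are UT arrays, triangles are vit C arrays, and lines join group means; CDKN1A is lower in vit C at every time point, CDKN1B, CDKN1C and CDKN2C climb by 96 h in both arms, and CCND1 and BTG2 drop.

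Of the 10 genes, CDKN1A stood out in the comparison of vit C-treated with UT cells, which asks what the vitamin changed at each time. CDKN1A encodes p21, the inhibitor through which p53 stops the cycle, and lies on chromosome 6 (36676463 to 36687332, GRCh38.p14). At 8 h its level was 5.91 and 5.90 in UT cells and 5.68, 5.51 and 5.76 in vit C-treated cells. At 24 h it was 5.97, 6.22 and 6.37 against 5.66 and 5.45, and at 48 h it was 5.60 and 5.54 against 4.58 and 4.68. At 96 h it was 4.43, 4.67 and 3.70 in UT cells and 3.16 and 3.06 in vit C-treated cells. At each of the 4 time points every vit C array lay below every UT array. The share of all genes that separate in this way was not computed. Groups of 2 or 3 arrays can separate often, so here and below this is a description only. The difference was -0.26 at 8 h (SE 0.24, q 0.719), -0.63 at 24 h (SE 0.24, q 0.205), -0.94 at 48 h (SE 0.26, q 0.0679) and -1.15 at 96 h (SE 0.24, q 0.0129), so the call was made at 96 h, where the level was 2.23-fold lower with vit C. Averaged over the 4 time points the difference was -0.75 (SE 0.12, 95% interval -1.01 to -0.48, q 0.00143), which passed the q but lay short of the fold threshold, as did its second probe (-0.99, q 0.00276).

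The gene has 2 probes of 60 bases on the array, and these are their opening 30 bases, shown because both carried the difference:
brighter CDKN1A probe: catccctccccagttcattgcactttgatt
second CDKN1A probe: tctgctgcaggggacagcagaggaagacca
The second probe was lower with vit C by -0.25, -1.30, -0.95 and -1.45 at 8, 24, 48 and 96 h, and its q was 0.0802 at 24 h and 0.0269 at 96 h. On this probe the 2 treatments did not overlap at any time point either, though both probes were read on the same arrays. The vit C 24 h arrays read 1.00 and -0.23 on this probe, a wider spread than on the brighter one.

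**Figure D2:**
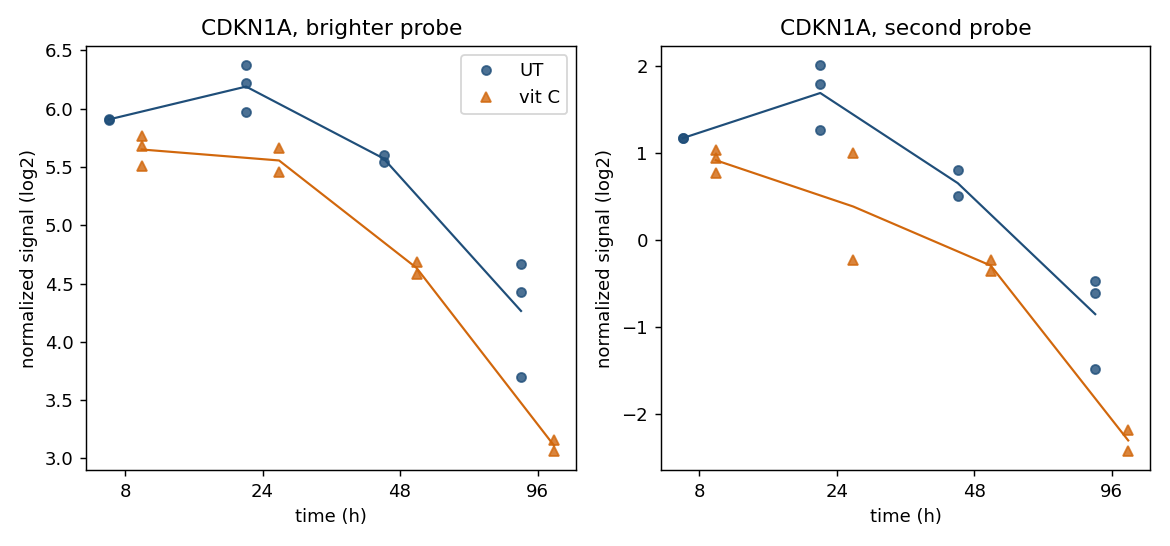
Normalized log2 signal (y axis) of the 2 CDKN1A probes against time in hours (x axis, evenly spaced), with circles for UT arrays, triangles for vit C arrays and lines through group means. On both probes the vit C arrays sit below the UT arrays at 8, 24, 48 and 96 h, and both arms are lowest at 96 h.

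The 96 h call for CDKN1A, made with 2 vit C and 3 UT arrays, was lost without vit C 96 h replicate 1 (q 0.0857), without vit C 96 h replicate 2 (q 0.125), without UT 96 h replicate 2 (difference -0.95), when only the 2 groups were fitted (q 0.180) and with the methods' t-test after Benjamini-Hochberg adjustment (q 0.283). Without UT 96 h replicate 3 the difference was -1.44 (q 0.000427), and CDKN1A was then called at 24 h too. With slide as a random block the 96 h call was kept. With slide as a fixed block, which vit C at 96 h does not allow, CDKN1A differed by -0.01 and -0.39 at 8 and 24 h, neither called. At 48 h it differed by -0.74, with 1 vit C array in that fit. The slide term there comes from UT 96 h alone, where replicates 2 and 3 differed from replicate 1 by -0.25 on average. They read 4.67 and 3.70 against 4.43, so the term turns on replicate 3, and these values cannot separate slide from vit C.

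None of the other 9 genes was called in a comparison of vit C with UT. Over all 10 genes, limma called 0 at 8 h, where 0.549% of all genes tested were called, 0 at 24 h (background 1.65%), 0 at 48 h (background 3.64%) and 1, lower, at 96 h (background 12.8%). The background shares leave out removed genes, and at 96 h 1 of the 10 was called, 5 were not and 4 were removed. A single call is too few to set apart from that background. The background itself moved with the processing: 3375 genes were called at 96 h as reported, 1019 without dim probes, 1000 with quantile normalization and 829 with normexp. CDKN1A was called in each of these. If p was left unadjusted, the counts at the 4 times were 0, 1, 1 and 1, the additions being CDKN1A at 24 h and CCND1 at 48 h. Over all genes 1770 of 25136, 2228 of 26109, 2455 of 25438 and 4927 of 26337 were then called. The methods' t-test with adjustment called 0 of the 10 at every time. The mean effect of the 4 times gave 0 calls among the 10 (background 3.46%). It also gave 0 without adjustment, where 1068 of 26326 genes were called. With the replicate number as a block it gave 1, CDKN1A (-0.76 on the brightest probe, q 0.00391). Probes in opposite directions removed 1, 0, 2 and 4 of the 10 genes at the 4 times, CDKN1B at 48 and 96 h and CCND1 at 8 and 96 h among them. All 10 genes together were lower with vit C on the brightest probe in 8, 10, 6 and 8 cases. The median difference of the 10 was -0.10, -0.26, -0.19 and -0.18, against -0.05, -0.13, -0.02 and -0.15 over all genes. Without CCND2 it was -0.08, -0.27, -0.18 and -0.17. These medians are small and moved, to -0.04 at 8 h without UT 8 h replicate 2, to 0.0003 at 48 h without vit C 48 h replicate 2 and to -0.05 at 96 h with quantile normalization. Other alternatives made them more negative. At 24 h the median was -0.43 with gene means of probes and -0.40 with slide as a fixed block, and at 48 h it was -0.38 with that block.

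The other CIP/KIP inhibitors gave smaller or changing differences. CDKN1B, which holds cells in quiescence, differed by -0.08, -0.27, 0.38 and -0.02, and its 95% interval at 96 h ran from -0.60 to 0.56. CDKN1C differed by -0.21 and -0.71 at 8 and 24 h and by 0.44 and 0.58 at 48 and 96 h. At 24 h its vit C arrays (-1.88 and -2.003) lay below all UT arrays (-0.89, -1.36 and -1.45), and at 96 h they (1.93 and 1.86) lay above all UT arrays (1.39, 1.65 and 0.91), with q of 0.159 and 0.127. The INK4 member CDKN2C differed by 0.21, -0.03, 0.32 and -0.17, with an interval of -0.63 to 0.28 at 96 h.

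Among the cyclins, which activate CDK4 and CDK6, CCND1 was 0.32 higher at 8 h and 0.28, 0.68 and 0.20 lower at 24, 48 and 96 h on its brightest probe. At 48 h its UT arrays read 3.69 and 3.60 and its vit C arrays 2.80 and 3.14, without overlap (q 0.169). The 48 h difference was -1.23 and -0.69 on its other 2 probes, and the gene was called lower at 48 h without UT 96 h replicate 3 (q 0.0481 on the brightest probe). At 96 h these 2 probes were 0.29 and 0.23 higher with vit C, against the brightest one. CCND3 differed by -0.13, -0.25, -0.18 and -0.18, and none of its q was below 0.685. Without UT 96 h replicate 3, or with opposing probes kept, CCND2 was also called lower at 96 h, on a probe that is above background on 0 arrays.

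RB1 and the arrest genes completed the set. RB1, the substrate of the cyclin D kinases, differed by -0.01, -0.20, -0.20 and -0.47. Its brightest probe was lower with vit C at 96 h without overlap (4.50 and 4.52 against 4.83, 4.79 and 5.31), but its second probe was 0.47 higher, so the gene was removed there. GADD45A, a stress-induced arrest gene, was lower at 24 h, with 0.46 and 1.43 in vit C-treated cells against 2.05, 2.02 and 1.68 in UT cells (difference -0.98, SE 0.34, q 0.164). At 48 h it was higher, with 1.84 and 1.46 against 1.03 and 1.14 (0.57, q 0.522). BTG2, an antiproliferative member of the BTG/TOB family, differed by -0.56 at 48 h (5.44 and 5.34 against 5.99 and 5.92, q 0.150), and by -0.03 and -0.16 at 24 and 96 h.

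Whether the vit C effect changed with time was asked with an F test on the brightest probe of each gene. It called 0 of the 10 genes (background 1.05%). CDKN1C had the lowest q (0.157, unadjusted p 0.00831 from limma), followed by GADD45A (q 0.274, unadjusted p 0.0429 from limma), and these were the 2 genes at an unadjusted p of at most 0.05. For CDKN1A the q was 0.378. The larger differences of CDKN1A at the later times are thus values only, since a change of its vit C effect with time did not pass this test.

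**Figure D3:**
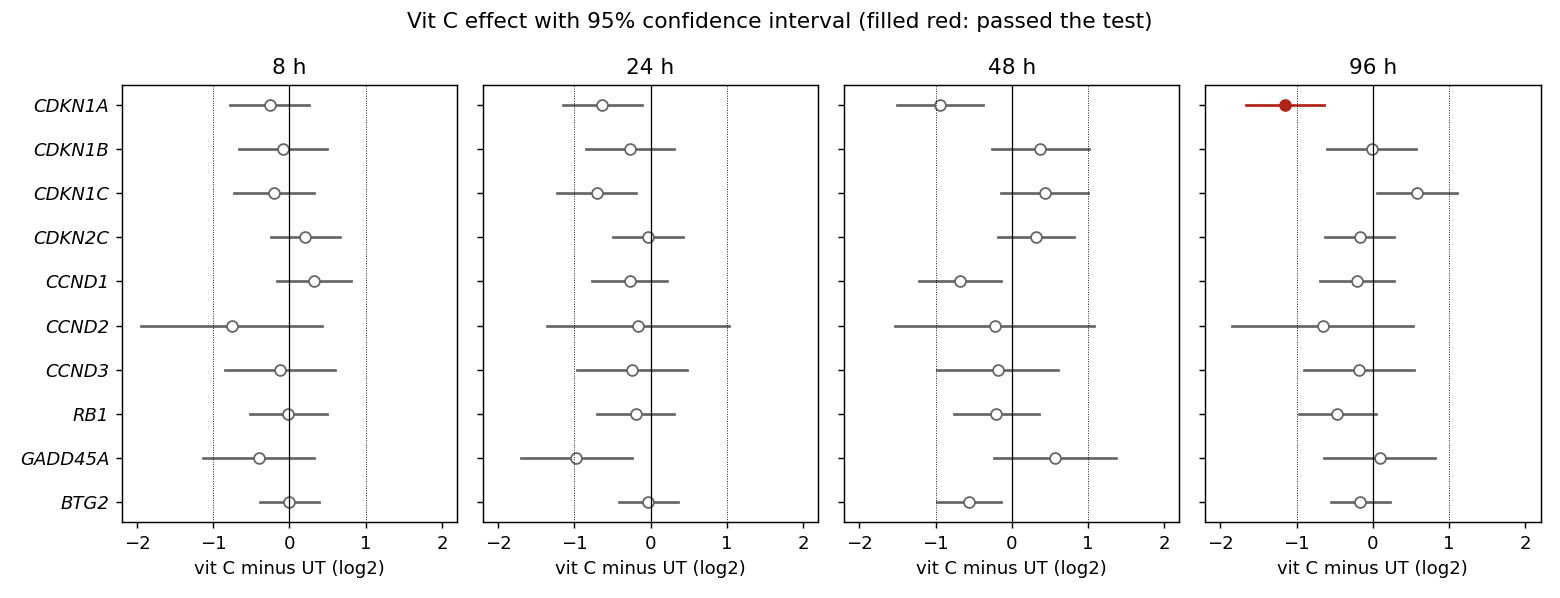
Difference between vit C-treated and UT cells (x axis, log2) for each of the 10 genes (y axis) at 4 time points, one panel each. CCND2 is drawn too, but its brightest probe was above background on 4 of 19 arrays, so no fold is read from it. Circles are estimates on the brightest probe and bars are 95% confidence intervals from limma; dotted lines mark the fold threshold of 1 in either direction, and the single filled red point is CDKN1A at 96 h (-1.15).

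The larger differences lay along time after PMA, within each arm. In UT cells at 96 h against 8 h, CDKN2C, CDKN1C and CDKN1B rose and CDKN1A and CCND1 fell. That is 3 genes higher and 2 lower of 10, with 3 not called and 2 removed, where 16.1% of all genes tested were called. In vit C-treated cells over the same span the same 5 genes and BTG2 were called, 3 higher and 3 lower, with 3 not called and 1 removed (background 28.9%). The vit C arrays of 8 h and 96 h lay on different slides, so this change and slide cannot be told apart. Their 75th percentile of signal ran from 434.4 to 447.4 at 8 h and from 787.6 to 903.5 at 96 h. The median change of the 10 genes was 0.21 in UT and 0.23 in vit C-treated cells, against 0.02 and -0.17 over all genes. It was 0.46 and 0.45 without CCND2, and the UT median was 0.01 with slide as a block, 0.37 without UT 8 h replicate 1 and 0.14 without UT 96 h replicate 3. The 2 arms share no arrays. Fitted on the 2 groups alone, the UT calls of CDKN1B (q 0.120) and CCND1 (q 0.157) were lost, and the methods' t-test kept none of the 5 UT calls (q 0.0698 to 0.287).

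CDKN2C (chromosome 1, 50960745 to 50974634) rose from 3.98 ± 0.07 (SD, n = 2) at 8 h to 6.004 ± 0.24 (SD, n = 3) at 96 h in UT cells, a change of 2.02 (SE 0.21, q 9.0e-06), or 4.07-fold. Its UT arrays read 3.93 and 4.03 at 8 h, 3.83, 3.23 and 3.58 at 24 h, 4.12 and 4.12 at 48 h and 6.005, 5.77 and 6.24 at 96 h. Its 96 h arrays lay above all earlier ones. With vit C it read 4.13, 4.24 and 4.18 at 8 h, 3.27 and 3.76 at 24 h, 4.50 and 4.39 at 48 h and 5.85 and 5.81 at 96 h, a change of 1.64 from 8 h (q 4.9e-05).

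CDKN1C (chromosome 11, 2883218 to 2885775), the imprinted CIP/KIP inhibitor known from development, had its lowest values at 24 h and its highest at 96 h. In UT cells it read -0.76 and -0.28 at 8 h, -0.89, -1.36 and -1.45 at 24 h, -0.67 and -0.66 at 48 h and 1.39, 1.65 and 0.91 at 96 h. With vit C it read -0.89, -0.53 and -0.75, then -1.88 and -2.003, then -0.13 and -0.33, then 1.93 and 1.86. The difference of 24 h from 8 h was called in vit C-treated cells (-1.22, q 0.00696) and not in UT cells (-0.71, q 0.150). That call was lost without vit C 24 h replicate 2 (-1.15, q 0.0711), with normexp background correction (-0.92) and with the methods' t-test (q 0.112). The change from 8 to 96 h was 1.84 in UT cells (SE 0.24, q 7.5e-05) and 2.62 in vit C-treated cells (SE 0.24, q 2.2e-06).

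CDKN1B (chromosome 12, 12717368 to 12722369) stayed between -0.23 and 0.48 on all arrays of 8, 24 and 48 h in either arm. At 96 h it read 0.96, 1.63 and 2.15 in UT cells and 1.53 and 1.60 in vit C-treated cells. The change from 8 h was 1.44 (SE 0.27, q 0.00142) in UT cells and 1.499 (q 0.000839) with vit C, and on its second, dimmer probe it was 0.65 (q 0.269) and 1.52 (q 0.00864). On the brightest probe UT 96 h replicate 1, on the slide of the 8 h arrays, lay below the other 2 replicates, which were 0.93 higher on average, while on the second probe they were lower (-2.82 and -4.15 against -2.49). With slide as a block the change was 0.82 (q 0.117) and the call was lost.

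CDKN1A and CCND1 went the other way. CDKN1A changed by -1.64 from 8 to 96 h in UT cells (SE 0.24, q 0.000189) and by -2.54 in vit C-treated cells (SE 0.24, q 2.8e-06), a 3.12-fold and a 5.81-fold fall. With vit C it was already lower at 48 h (-1.02, q 0.00906), while the UT change at 48 h was -0.33 (q 0.448). The 48 h call was lost with slide as a block (-1.06, q 0.0755) and without vit C 48 h replicate 1 (-0.97, q 0.0736) or vit C 8 h replicate 3 (-0.96).

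CCND1 (chromosome 11, 69641156 to 69654474) had higher values in the middle of the UT course. It went from 2.72 and 2.67 at 8 h to 3.41, 3.69 and 3.62 at 24 h and 3.69 and 3.60 at 48 h, and was at 1.93, 1.79 and 1.18 at 96 h. The difference from 8 h was 0.88 at 24 h (q 0.0527) and 0.95 at 48 h (q 0.0246), under the fold threshold, and the 48 h difference was called without UT 96 h replicate 3, with quantile normalization (0.98) and with gene means of probes (1.05). The fall from 8 to 96 h was -1.06 (SE 0.23, q 0.00370) on the brightest probe and -1.70 and -1.65 on the other 2. With vit C CCND1 read 3.18, 2.89 and 2.98 at 8 h, 3.50 and 3.10 at 24 h, 2.80 and 3.14 at 48 h and 1.46 and 1.40 at 96 h, a change of -1.59 (q 0.000126).

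BTG2 (chromosome 1, 203305519 to 203309602) had a similar course. In UT cells it read 5.49 and 5.42 at 8 h, 5.70, 5.92 and 5.73 at 24 h, 5.99 and 5.92 at 48 h and 4.47, 4.24 and 4.75 at 96 h. Its change from 8 to 96 h was -0.97 in UT cells (q 0.00133), just short of the fold threshold, and -1.13 in vit C-treated cells (q 0.000322), where it was called. The UT change was called without UT 96 h replicate 3 (-1.10) and with normexp (-1.04), and the vit C change missed the threshold under quantile normalization (-0.99), so the single call in 1 arm does not show that the arms differ.

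The upstream sequences of 2 genes that were lower at 96 h and of 1 that was higher are shown so that the regulatory DNA of the 2 directions can be read together. They are the 250 bases before a RefSeq transcript start on the plus strand of GRCh38.p14, chr6:36678464-36678713 for CDKN1A, chr1:203305269-203305518 for BTG2 and chr12:12717118-12717367 for CDKN1B. Capitals mark GGGCGG, the core of the GC box, and CCAAT, on either strand. The CDKN1A start shown lies inside the locus given above, which begins further upstream.
CDKN1A: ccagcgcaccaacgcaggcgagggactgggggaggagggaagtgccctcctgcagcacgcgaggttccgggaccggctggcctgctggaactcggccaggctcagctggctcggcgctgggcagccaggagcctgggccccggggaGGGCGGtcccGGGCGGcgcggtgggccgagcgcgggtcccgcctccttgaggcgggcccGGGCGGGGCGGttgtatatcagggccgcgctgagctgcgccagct
BTG2: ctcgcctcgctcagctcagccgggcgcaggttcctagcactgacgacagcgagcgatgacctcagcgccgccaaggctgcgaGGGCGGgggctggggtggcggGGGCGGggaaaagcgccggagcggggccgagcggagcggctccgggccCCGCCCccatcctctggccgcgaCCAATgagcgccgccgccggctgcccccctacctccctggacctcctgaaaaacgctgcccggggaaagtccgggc
CDKN1B: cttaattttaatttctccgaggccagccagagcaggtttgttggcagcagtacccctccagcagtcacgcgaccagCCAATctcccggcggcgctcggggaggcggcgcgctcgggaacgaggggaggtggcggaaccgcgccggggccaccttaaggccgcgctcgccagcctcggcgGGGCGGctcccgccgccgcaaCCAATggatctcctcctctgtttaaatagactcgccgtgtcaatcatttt
The CDKN1A window holds 4 GGGCGG and 0 CCAAT, the BTG2 window 3 and 1, and the CDKN1B window 1 and 2, and the 2 motifs overlap in none of these windows, while the last pair of GGGCGG in the CDKN1A window shares a base. Of 35116 RefSeq windows of this length, 42.6% hold GGGCGG and 32.0% hold CCAAT, so both are common. Windows of 6 of the 10 genes were in the table. CDKN2C has 3 start sites with 0, 5 and 1 GGGCGG and CCND3 has 3 with 0, 2 and 5, while the single RB1 window, inside the gene, holds neither motif. CDKN1C, CCND1, CCND2 and GADD45A are named only.

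**Figure D4:**
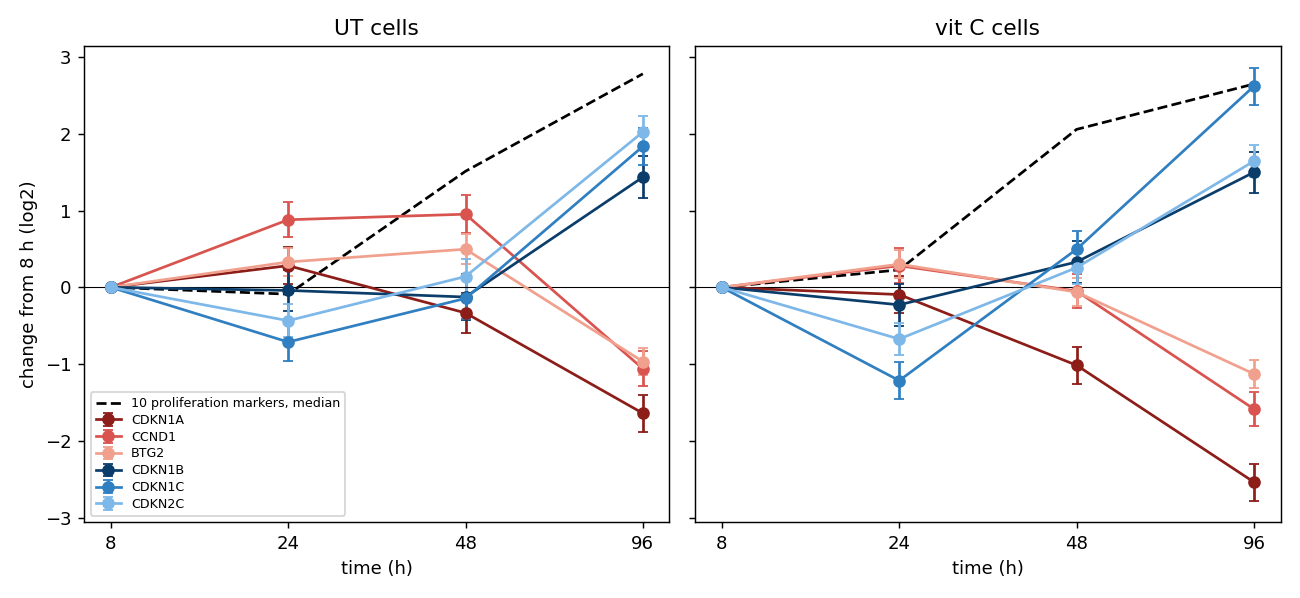
Change from 8 h (y axis, log2) against time in hours (x axis, evenly spaced) in UT cells (left) and vit C-treated cells (right) for 6 genes, with standard errors from limma as bars; the dashed line is the median of 10 proliferation markers. By 96 h CDKN1A, CCND1 and BTG2 lie below 0 and CDKN1B, CDKN1C and CDKN2C above 0 in both panels, and the marker median reaches 2.78 and 2.65.

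The earlier times gave few calls. In UT cells limma called 0 of 10 genes at 24 h against 8 h (background 2.65%). It also called 0 without adjustment of p, where 1831 of 26089 genes were called, and the methods' t-test called 0. At 48 h limma called 1, GADD45A, which was lower (background 8.90%). GADD45A (chromosome 1, 67685201 to 67688334) read 2.41 and 2.48 at 8 h, 2.05, 2.02 and 1.68 at 24 h, 1.03 and 1.14 at 48 h and 2.14, 1.98 and 3.07 at 96 h. It therefore fell by 1.36 at 48 h (SE 0.37, q 0.0310) and differed from 8 h by -0.05 at 96 h (interval -0.78 to 0.68). The call was lost without any 1 of the 4 UT arrays of 8 and 48 h (q 0.114 to 0.149) and with slide or replicate as a block (q 0.0621 and 0.0571).

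Among vit C-treated cells 1 gene was called at 24 h, CDKN1C, lower (background 5.61%), and at 48 h CCND3 was called higher and CDKN1A lower (background 13.1%). At 24 h 1 gene was called, 5 were not and 4 were removed, and at 48 h 2 were called, 7 were not and 1 was removed. Counts this small cannot be set apart from their background shares, which leave out removed genes. GADD45A had its lowest values at 24 h in this arm (2.32, 2.18 and 1.62 at 8 h, 0.46 and 1.43 at 24 h, 1.84 and 1.46 at 48 h, 2.39 and 2.58 at 96 h), with a change of -1.09 at 24 h (q 0.0740). The size depended on which 24 h array was kept, with -0.61 (q 0.435) without vit C 24 h replicate 1 and -1.58 (q 0.0413, called) without replicate 2. It was also called with quantile normalization (q 0.0429) and without UT 96 h replicate 3 (q 0.0217).

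CCND3 (chromosome 6, 41934933 to 42050035), a D-type cyclin prominent in blood cells, had its highest group mean at 48 h in the vit C arm and in UT cells alike. Its UT arrays read 1.61 and 1.55 at 8 h, 1.75, 2.09 and 2.31 at 24 h, 2.75 and 2.70 at 48 h and 2.58, 2.81 and 1.39 at 96 h. Its vit C arrays read 1.48, 1.21 and 1.67, then 2.07 and 1.53, then 2.45 and 2.64, then 2.13 and 2.02. The 48 h change was 1.09 in vit C-treated cells (SE 0.34, q 0.0385) and 1.15 in UT cells (SE 0.37, q 0.0667), so the 2 arms fell on either side of the threshold with near-equal values. The vit C call was lost in 12 of the 19 fits that each left out 1 array. It was also lost with slide as a fixed block (0.99) and with the replicate blocks (q 0.0588 to 0.0922). Gene means of probes (q 0.128), normexp (0.97) and the methods' t-test (q 0.0639) lost it too. The UT change was called without UT 96 h replicate 3, which read 1.39 where the other 2 read 2.58 and 2.81.

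RB1 (chromosome 13, 48303751 to 48481890) had no called change along time in either arm. Its brightest probe ranged from 3.82 to 5.31 over the 19 arrays and its UT change at 96 h was 0.46 (interval -0.04 to 0.97), with the second probe at -0.21.

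Over the 19 arrays the genes formed opposed groups, and this is a description in which the time points are shared by all genes. BTG2 ran with CCND1 (Pearson's r 0.935) and CDKN1A with CCND1 (0.861), CDKN2C ran with CDKN1C (0.943) and CDKN1B (0.931), and CDKN2C ran against CCND1 (-0.927). CCND3 was close to none of them (r with CDKN1A -0.152). Among 17283 other genes above background on all arrays, the array names with a course most like CDKN1A were LYPLA2 (r 0.979), SERTAD1 (0.977) and A2M (0.976). Most like CDKN2C were IAH1 (0.985) and SCCPDH (0.984), most like CDKN1B were DOCK4, PDGFRL and C3orf14 (0.961 to 0.955), and most like CDKN1C were SLC2A9 and PDGFRL (0.973 and 0.963). CCND1 was closest to IER3, TNFSF14 and KIAA1949 (0.968 to 0.956), BTG2 to ADARB1 and LOC644242 (0.968 and 0.959), CCND3 to H1FX, ASS1 and SFXN5 (0.952 to 0.940), RB1 to NFE2L3, RNASEN and C5orf25 (0.936 to 0.927) and GADD45A to MAPRE2, TLR4 and SLC35B3 (0.931 to 0.903). A further transcript among the top 3 of CDKN2C, CDKN1C and BTG2 has no gene symbol on the array.

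The proliferation markers rose along the same time course. In UT cells 8 of 10 were higher at 48 h and 10 of 10 at 96 h, with MKI67 2.88, TOP2A 2.69 and CCNB1 2.98 above 8 h, and in vit C-treated cells 10 of 10 were higher at both times, with 2.40, 3.83 and 2.85 at 96 h. The median of the 10 markers at 96 h was 2.78 in UT and 2.65 in vit C-treated cells, so the markers stood high at the time when CDKN1B, CDKN1C and CDKN2C were high and CDKN1A was at its lowest. In these bulk samples a change in the share of cells and a change in RNA per cell cannot be told apart. Between vit C and UT, 0 of the 10 markers were called at any time by limma, and 0 without adjustment of p. Of 8 macrophage markers, ITGAM was lower with vit C at 48 h (-1.17, q 0.00322) and LYZ higher at 96 h (1.17, q 0.0422), the time of the CDKN1A call, and 0 were called at 8 and 24 h. At 96 h against 8 h CD14 was higher in UT cells and CD68, ITGAX, SPI1 and LYZ were lower. With vit C CD14 was higher and CD68 and ITGAX lower. The part of these markers in the members' changes was not tested.

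Of 21 other genes of the G1/S step, 11 were higher and 2 lower at 96 h in UT cells (median 1.54), and 12 and 3 in vit C-treated cells (median 1.67). Cyclin A2 (CCNA2), which drives S phase, rose by 3.64 and 3.43, and the repressor E2F8 by 3.63 and 3.80. CDK6, the partner of the D-type cyclins, fell by 1.29 on the log2 scale in UT cells and by 1.90 in vit C-treated cells, while CDK4 changed by -0.09 and 0.75, under the threshold. CCNE2 was also called higher, with its brightest probe above background on 13 of 19 arrays, so its fold is left out. At 96 h 1 of the 21 was lower with vit C than in UT cells, E2F2, on a probe other than the brightest, and 0 at the other times, also without adjustment of p.

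Of 12 further growth arrest genes, 4 were higher and 1 lower at 96 h in UT cells, and 5 and 4 in vit C-treated cells. CDKN2D, the INK4 inhibitor p19, rose by 3.04 and 2.68, CDKN3, a phosphatase of CDKs that is made in cycling cells, rose by 3.04 and 2.84, and GADD45G fell by 1.90 on the log2 scale in UT cells and by 2.68 in vit C-treated cells. Vit C against UT called 2 of the 12 at 96 h, GADD45B, lower (-1.38), and CDKN2B, whose brightest probe was above background on 4 of 19 arrays.

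Of 15 p53 targets other than the members, 3 were higher and 2 lower at 96 h in UT cells, and 6 and 1 in vit C-treated cells. FAS rose by 2.17 in UT cells, SESN2 by 1.89 and 2.17 and DDB2 by 1.69 and 2.01, and PLK3 was lower (-1.52 and -2.38). Between vit C and UT, 1 of the 15 was called at 48 h and 1 at 96 h, both times PLK2, with -1.33 and -1.05, and 0 at 8 and 24 h, also without adjustment of p. MDM2, the p53 inhibitor and a standard p53 target, differed by 0.18 at 96 h and FAS by -0.97, neither called. The median difference of the 15 with vit C was -0.27, -0.16, -0.25 and -0.13 at the 4 times, beside the medians over all genes given before.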

How the data were processed

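The authors labelled RNA of 19 samples (the labels give 0.1 mM vit C and 30 nM PMA), hybridised it to Agilent 1-colour arrays and deposited the spot intensity files of Feature Extraction, version 10.5.1.1 per the file headers, with detrending on and background correction off. The deposited series matrix holds log2 values that the authors shifted to each array's 75th percentile, and it was used as an alternative. Of 52857 spots 51538 were not controls. The log2 signals of repeat spots were averaged to 50238 probes and the 75th percentile was subtracted. limma 3.58.1 in R 4.3.3 fitted 8 group means, 2-sided. Figures were drawn with matplotlib 3.10.9 in Python 3.11.15. The number of arrays limits the precision. No array column was left unmapped. The fit was tested on simulated data. Members, gene lists and tests were chosen with earlier results of these data known.

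Replicates are flasks, and their numbers do not pair the arms: the deviations of same-numbered arrays from their group means had Pearson's r of -0.336 to 0.129. Named genes are the 10 members, the listed markers, up to 3 called genes of each list with the largest change and the 3 genes most like each member. Alternatives were opposing probes kept, the brightest probe, gene means, dim probes left out, quantile or normexp (offset 50) processing, the percentile over detected probes, slide or replicate as a block, fits of the compared groups, the methods' t-test, eBayes with a trend, the series matrix, an unadjusted p and each array left out. Genes carry the names of the array design, loci and upstream sequences are from RefSeq (GRCh38.p14), and a promoter was found for 6 of 10 genes. Some of the markers of other cell types are not reported here.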

Additional observations from a re-analysis of the deposited data

How the results depend on the processing

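Of 1760 recomputed values (10 genes, 4 time points and their average, each under every alternative that could be fitted), 19 gained a call, 5 lost one and 0 reversed a call. The only reported call among them, CDKN1A at 96 h, was kept in 16 of 19 fits with an array left out and in 14 of 16 other alternatives, and all 5 losses fall on it. The member count for vit C against UT over the 4 time points, 1 as reported, was 2 with opposing probes kept, with normexp and with an intensity trend, 3 at an unadjusted p, and 0 when only the compared groups were fitted and with the methods' t-test. It ran from 0 to 4 when each array was left out, with 4 without UT 96 h replicate 3 and 2 without vit C 24 h replicate 1. The averaged count, 0 as reported, was 1 with the replicate block, by title or description numbers, and 0 to 1 with arrays left out, the 1 being CDKN1A without UT 24 h replicate 1, UT 48 h replicate 2, UT 96 h replicate 3, or vit C 8 h replicate 1, 24 h replicate 1, 48 h replicate 2 or 96 h replicate 1. The count in UT cells along time, 6 as reported, was 0 with the methods' t-test and 5 to 10 with arrays left out, with 10 without UT 96 h replicate 3. In vit C-treated cells it was 9 as reported, 7 to 10 with arrays left out and, at 24 and 48 h, 1 against 3 with slide as a fixed block. The F test gave 2 genes at an unadjusted p and 0 with each array left out. The replicate block with the numbers crossed at 48 h was chosen after seeing the data, because same-numbered arrays there had r -0.135. With 2 arrays in each arm the 2 pairs must give the same r. This block gave 1, 1, 5 and 8 calls for vit C against UT, the average, UT and vit C along time. Slide as a fixed block could not be fitted for 96 h with vit C, the average or the F test, and the 2-group fits and the t-test were not run for the average and the F test. The cause of these changes was not tested.

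Normexp shifted the median over all genes from -0.15 to -0.40 for vit C against UT at 96 h, and relative to that median CDKN1A was lower by -1.004 as reported, -0.62 with normexp and -0.99 with quantile normalization. Small effects changed sign with the scaling, such as BTG2 at 96 h (-0.16, and 0.03 with quantile normalization) and CDKN2C (-0.17 and 0.01). With 2 arrays in a group, 1 array can decide a call, and where 1 of them was left out, the remaining array took its spread from the other groups.

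The number of genes called over the whole array also changed with the processing. For vit C against UT at 96 h it was 3375 as reported, 1019 without dim probes, 1000 with quantile normalization, 829 with normexp, 1203 with the replicate block, 3 in a fit of the 2 groups, 0 with the methods' t-test, 480 without vit C 96 h replicate 1 and 5992 without UT 96 h replicate 3. At 8, 24 and 48 h the reported 138, 432 and 926 became 0, 2 and 124 with slide as a fixed block and 12, 0 and 3 with the methods' t-test. The UT counts at 24, 48 and 96 h (691, 2360 and 4263) became 298, 1357 and 2379 with normexp and 0, 0 and 285 with the t-test, and the vit C counts (1469, 3554 and 7842) became 670, 1736 and 4054 with normexp.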
